A study of Mus musculus with 4 samples.

Results

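The genes described here encode the lysosome's cathepsins, its LAMP membrane proteins and its proton pump, together with the machinery of autophagy. They were chosen by gene symbol, as the symbols that begin with Cts and 1 further letter, Lamp, Atg, Atp6v, Gabarap or Map1lc3, plus Sqstm1, Tfeb, Ulk1 and Becn1. The rule found 69 genes among the 19504 genes of the table. They comprised 17 cathepsins, 4 LAMP genes, 13 genes with a symbol of the pump's V1 sector, 8 with a V0 symbol, 20 genes of the ATG group, 5 of the ATG8 family, and Sqstm1 and Tfeb. The data are expression values from 4 arrays of mouse ILC3s, innate lymphocytes that secrete IL-22 at barrier surfaces, sorted as LinCD90highCD45low. The first pair consists of a circZbtb20+/+ sample, called the circZbtb20 wild type, and a circZbtb20-/- sample, which lacks a circular RNA of the Zbtb20 gene. The second pair consists of an Nr4a1+/+ sample, called the Nr4a1 wild type, and an Nr4a1-/- sample, which lacks an orphan nuclear receptor. The sources used here give no age, sex, tissue or deletion design, and each genotype has 1 array.

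Lysosomes are acid compartments in which cathepsins and other hydrolases digest material taken up from outside or delivered from inside the cell. The V-ATPase pumps protons into them, with a cytosolic V1 sector that splits ATP and a membrane V0 sector that carries the protons, and LAMP proteins line their membrane. In macroautophagy, ULK1 and its partners start a membrane cup, a conjugation system links ATG8 proteins (the LC3 and GABARAP proteins) to it, and receptors such as p62, the product of Sqstm1, bring cargo. TFEB is a transcription factor that turns on many of these genes. In lymphocytes, cathepsins also process granule enzymes, and autophagy is known to support survival.

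Values are deposited log2 values, and differences are log2 differences, knockout minus the wild type of its pair. A gene is called higher or lower here when it differed at least 2-fold, which is 1 on the log2 scale, with the higher value at or above the median of its array. A genotype has 1 array and so no replicate error, and no p-value stands behind any call. The only measure of spread is the difference between the wild types, which also holds whatever else differed between the pairs. The table stops at a ceiling of unstated origin, so its differences need not equal ratios of RNA. In bulk samples, fewer cells of a type and less RNA per cell cannot be told apart. Where 4 values are listed for a gene, they follow the order circZbtb20 wild type, circZbtb20 knockout, Nr4a1 wild type, Nr4a1 knockout. The array medians ranged from 4.34 to 4.51. Of the 69 genes, 48 were at or above the median on 4 arrays, 7 on 1 to 3 arrays and 14 on none. No member reached the ceiling of 19.93, the highest being Sqstm1 at 15.39. Nr4a1 itself was lowest on the array labelled as its knockout, at 11.63, against 18.11 in the paired wild type. The value of 11.63 was still far above that array's median of 4.34 and its 75th percentile of 6.94. Loss of the gene is therefore not read from it, and was not tested. No value is given for circZbtb20, since no row was matched to the circular RNA.

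Levels of cell type markers differed between the arrays. Of 16 T cell and thymocyte markers, 16 were called higher in the Nr4a1 knockout, and their median level was 15.7, against 5.49 in its wild type. Of 13 ILC3 markers on the same array, 10 were called lower, and their median level was 5.51 against 15.35. Of the other ILC3 markers, Tox and Ltb were called higher there, by 4.38 and 3.21. Il22 was at the ceiling of 19.93, as in both wild types. In most of these markers the array labelled as Nr4a1 knockout ILC3s therefore goes against its cell type label, and it is named below by its label only. Macrophage markers were called lower there for 11 of 14 genes and gut epithelial markers for 12 of 12. Against the circZbtb20 wild type these counts were 7 of 14 and 6 of 12. In the circZbtb20 knockout, 6 of 13 ILC3 markers were called higher and 6 lower. Of 16 T cell and thymocyte markers, 3 were called higher and 3 lower there. Of 14 macrophage markers, 1 was called higher and 5 lower, but 0 higher and 11 lower when set against the Nr4a1 wild type. Pancreatic acinar markers were called lower in both knockouts, 10 of 11 for circZbtb20, with a median difference of -6.70, and 11 of 11 for Nr4a1, with -3.92. NK cell and ILC1 markers were called lower for 6 of 11 genes and higher for 1 in the circZbtb20 knockout. When set against the Nr4a1 wild type, 5 were called lower and 2 higher. In the Nr4a1 knockout 9 of 11 were called lower and 0 higher. Gut epithelial markers turned with the reference array: for circZbtb20, the knockout had 7 of 12 called higher and 2 lower when set against its own wild type, but 1 higher and 8 lower when set against the Nr4a1 wild type. The wild types themselves differed in such markers. In the Nr4a1 wild type 11 of 12 gut epithelial and 9 of 14 macrophage markers were called higher than in the circZbtb20 wild type, and 9 of 11 acinar markers lower. The part of these shifts in the differences below was not tested.

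**Figure D1:**
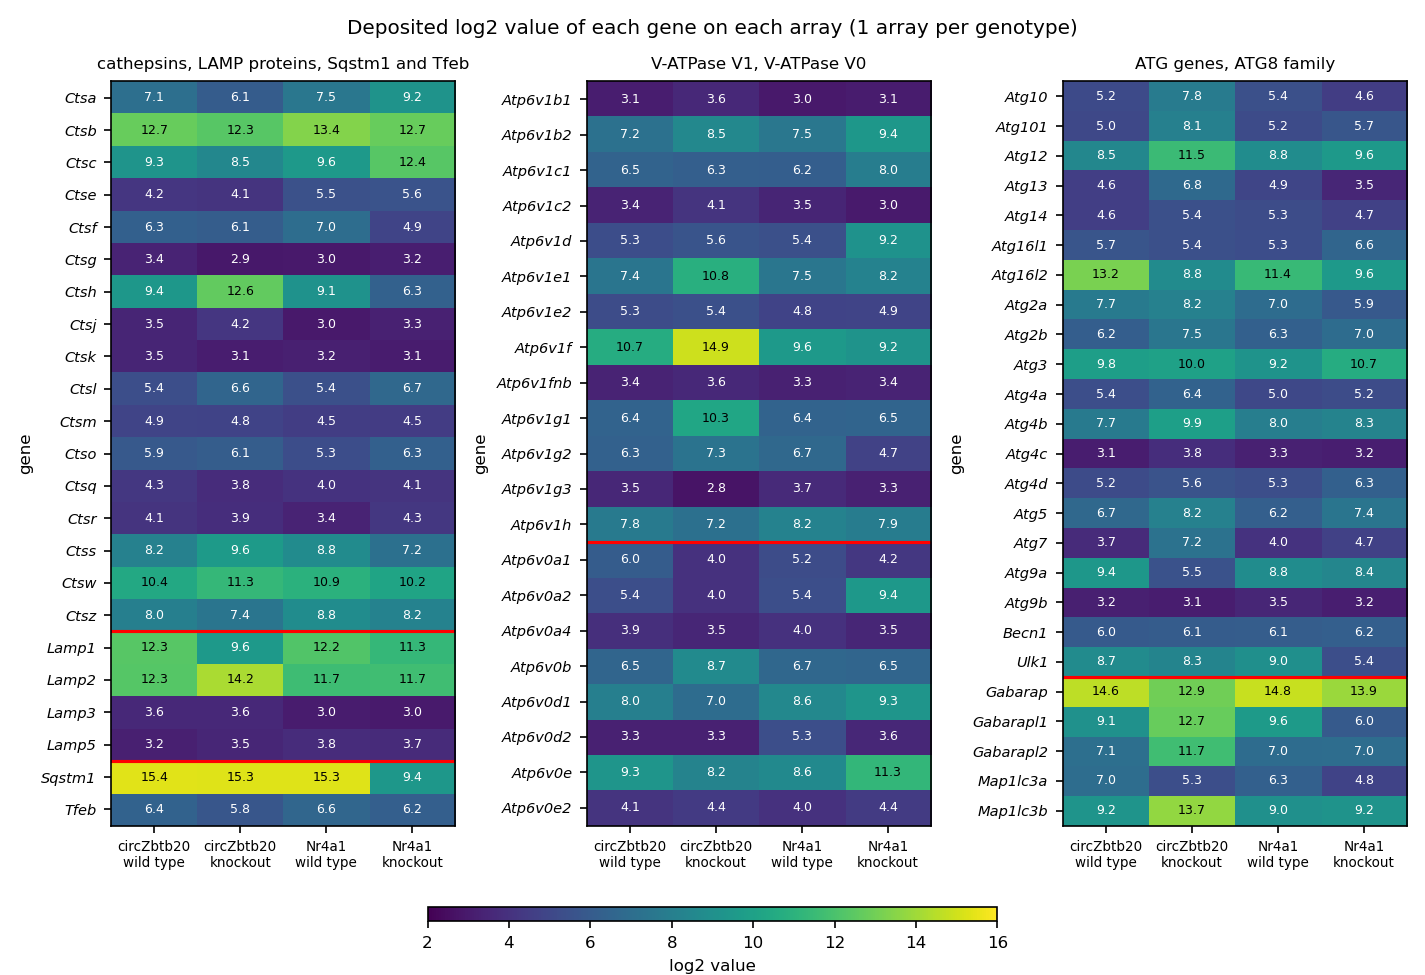
Deposited log2 values, rounded to 1 decimal, of the 69 genes on the 4 arrays, 1 array per genotype, with rows for genes, columns for arrays and red lines between families. Sqstm1 is at 15.29 to 15.39 on 3 arrays and at 9.41 in the Nr4a1 knockout, while Map1lc3b is at 13.73 in the circZbtb20 knockout, with 9.02 to 9.25 elsewhere. Yellow marks high values and dark violet low ones.

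In the circZbtb20 knockout, 32 of the 69 genes were called, 22 higher and 10 lower. That is 46.4% of the members, where the same rule called 26.6% of all genes. Higher calls made up 31.9% of the members and 15.6% of all genes, and lower calls 14.5% and 11.1%. Many genes of the table are near background on all arrays, so the shares were also taken over genes whose mean over the 4 arrays was at or above 4.535, the median of such means. Over those, 60.4% of 53 members and 47.4% of all genes were called. The median difference of the 69 members was 0.18, against 0.04 over all genes. Against both wild types 27 members were called, 19 higher and 8 lower, where 20.1% of all genes were.

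In the Nr4a1 knockout, 24 of the 69 genes were called, 11 higher and 13 lower. Their share of 34.8% lay near the 30.3% of all genes. Higher calls made up 15.9% of the members and 18.3% of all genes, and lower calls 18.8% and 11.9%. Over genes with a mean at or above the median of means, 43.4% of members and 53.7% of all genes were called. The median difference was 0.04, against 0.00 over all genes. Against both wild types 20 members were called, 8 higher and 12 lower, where 24.2% of all genes were. The knockout comparisons had 14 called members in common, which is 43.8% of those called in the circZbtb20 comparison and 58.3% of those in the Nr4a1 comparison. Over all genes the shared calls were 54.1% and 47.6% of those lists. Of the 14 shared members 6 differed the same way and 8, or 57.1%, in opposite directions, where 40.9% of the 2807 shared calls of all genes were opposite. These shares were not tested.

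Between the wild types, 4 of the 69 members were called, 2 higher and 2 lower in the Nr4a1 wild type. This share of 5.8% compares with 8.36% of all genes, with 4.65% called higher and 3.71% called lower. Over genes with a mean at or above the median of means it was 5.66% of members and 14.4% of all genes. The called members were Ctse at 1.26, Atp6v0d2 at 2.08, Atp6v1f at -1.09 and Atg16l2 at -1.80. Beclin 1, encoded by Becn1 and part of the lipid kinase complex that starts the membrane cup, was the other extreme of variation, with values from 5.95 to 6.24 over the 4 arrays.

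**Figure D2:**
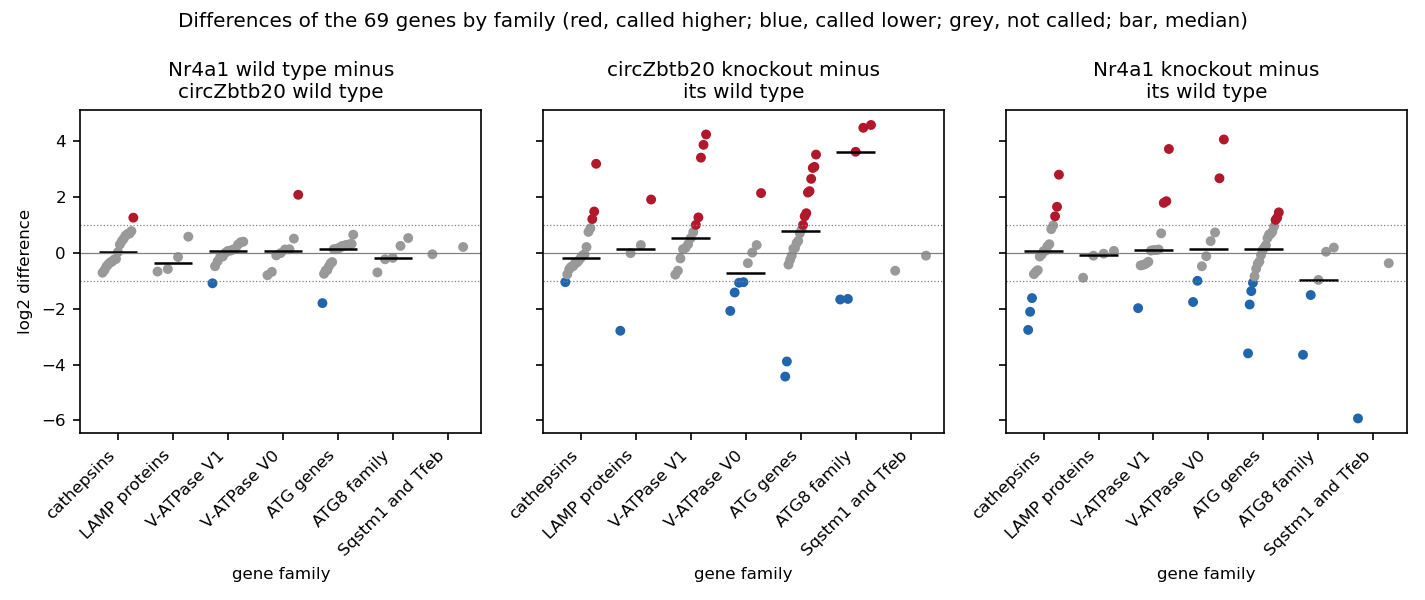
Log2 differences (vertical axis) of the 69 genes by family (horizontal axis) in the 3 comparisons, with red for genes called higher, blue for genes called lower, grey for others, a bar for the median of families with over 2 genes, and dotted lines at 1 and -1. The wild types differ by 2.08 or less in size for each gene, and the ATG8 family spans -1.67 to 4.58 in the circZbtb20 comparison.

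Promoters were searched because TFEB binds the CLEAR element, whose core is TCACGTGA and which contains the E-box CACGTG. Both motifs read the same on either strand, and each core holds an E-box. The windows run from 250 bases before to 50 bases after the start of a gene, are taken from RefSeq with build GRCm38.p6, and were found for 55 of the 69 genes. The core lay in 4 of 62 windows of these genes, or 6.45%, and in 0.974% of all 32851 windows. An E-box lay in 17.7% of the members' windows and in 7.15% of all windows. The members with the core were Ctsa, Atg3, Atp6v0d1 and Atp6v0e. Their sequences are shown with that of Lamp1, which was added after its values were seen because its window holds 4 E-boxes. Positions count the first transcribed base as 1 and the base before it as -1, and capitals mark the core or, outside a core, the E-box.
Ctsa, chr2:164833623-164833772, plus strand, -150 to -1: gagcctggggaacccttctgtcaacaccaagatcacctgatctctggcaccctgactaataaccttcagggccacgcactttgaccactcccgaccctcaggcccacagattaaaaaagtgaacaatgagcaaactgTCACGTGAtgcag
Atg3, chr16:45158679-45158828, plus strand, -150 to -1: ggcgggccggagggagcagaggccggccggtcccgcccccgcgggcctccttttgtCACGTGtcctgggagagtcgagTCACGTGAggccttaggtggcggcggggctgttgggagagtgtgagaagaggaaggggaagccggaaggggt
Atp6v0d1, chr8:105566050-105566079, minus strand, -15 to 15: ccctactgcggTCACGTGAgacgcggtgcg
Atp6v0e, chr17:26676387-26676416, plus strand, -9 to 21: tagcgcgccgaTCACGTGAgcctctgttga
Lamp1, chr8:13159011-13159160, plus strand, -150 to -1: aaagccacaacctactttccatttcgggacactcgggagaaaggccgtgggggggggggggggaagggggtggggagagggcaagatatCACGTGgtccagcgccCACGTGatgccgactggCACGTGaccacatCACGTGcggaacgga

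The cores lie close to the start of the gene in 3 of the 4 members. In Ctsa the core begins at -13, and a further core begins at 5, outside the stretch shown. It begins at -4 in Atp6v0d1, at 3 in Atp6v0e and at -72 in Atg3, where a separate E-box begins at -94. The E-boxes of Lamp1 begin at -61, -45, -28 and -15. The 4 members with a core differed by 1.65, 1.45, 0.73 and 2.67 in the Nr4a1 knockout, for Ctsa, Atg3, Atp6v0d1 and Atp6v0e, so that 3 were called higher. In the circZbtb20 knockout the same genes differed by -1.05, 0.17, -1.07 and -1.05, so that 3 were called lower. These 3 calls lay close to the threshold. After median centring, which makes the array medians equal, Ctsa, Atp6v0d1 and Atp6v0e were at -0.95, -0.97 and -0.95, under the 2-fold size. Against the other wild type, 2 of 4 stayed called in each knockout: Atp6v0e was at -0.37 in the circZbtb20 knockout and Atg3 at 0.82 in the Nr4a1 knockout. Over the 227 measured genes with a core in a window, the median difference was 0.40 in the Nr4a1 comparison and 0.13 in the circZbtb20 comparison, against 0.01 and 0.05 over the 15690 measured genes with a window. Of these 227 genes, 29.5% were called higher and 11.5% lower in the Nr4a1 comparison, beside 19.1% and 11.7% of genes with a window. In the circZbtb20 comparison 23.3% were called higher and 15.9% lower, beside 15.9% and 11.2%. Among all genes with a mean at or above the median of means, 33.1% were called higher and 20.6% lower in the Nr4a1 comparison. The shares were 27.9% and 19.4% in the circZbtb20 comparison. The 227 genes were not limited by their mean, and no shift of them as a set was tested. A motif match is a description of the sequence. Tfeb was at 5.75 to 6.60 on the 4 arrays and was called in neither knockout. This is an RNA level and does not measure the activity of the protein, whose part in these differences was not tested.

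Of 17 cathepsins 3 were called higher and 1 lower in the circZbtb20 knockout, a share of 23.5% beside the 26.6% of all genes, with a median of -0.18. Ctsh, an aminopeptidase of lysosomes, stood at 9.42, 12.61, 9.11 and 6.35. The wild types were thus close to each other, with the knockouts on either side, at 3.19 and -2.76. Ctss, the protease that trims the class II invariant chain in antigen-presenting cells, went the same way, at 8.15, 9.63, 8.77 and 7.15. Its differences were 1.48 and -1.62, the first of them 0.86 if taken from the other wild type. Ctsl, a broadly expressed endopeptidase, was called higher in both knockouts. Its values were 5.37 and 5.40 in the circZbtb20 and Nr4a1 wild types and 6.58 and 6.71 in their knockouts, differences of 1.21 and 1.31.

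The Nr4a1 comparison called 3 cathepsins higher and 3 lower (median 0.06), a share of 35.3% beside the 30.3% of all genes. Ctsc, the dipeptidyl peptidase that activates granzymes, was at 9.26, 8.49, 9.56 and 12.36. The last array lay above the other 3, and the difference was 2.80. Ctsa, the protective protein that holds neuraminidase and beta-galactosidase together, was at 9.18 against 7.53, a difference of 1.65, and at 7.11 and 6.06 in the circZbtb20 pair, a difference of -1.05. Ctsf differed by -2.11, at 4.87 against 6.98. Ctsb, a major lysosomal cysteine protease, was well above the array medians throughout, at 12.72, 12.35, 13.41 and 12.73, and was called in neither knockout. Ctsw, a cathepsin of NK cells and cytotoxic T cells, was also high, at 10.19 to 11.32, and its differences of 0.88 and -0.76 were under the 2-fold size. Ctsz differed by -0.59 and -0.62, and Ctso by 0.21 and 0.98.

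The other cathepsins were low, and no row carried the symbol Ctsd. Ctsg, a granule protease of neutrophils and mast cells, the osteoclast cathepsin Ctsk and the placental cathepsins Ctsj, Ctsq and Ctsr were below the median on 4 arrays. Of 15 neutrophil and mast cell markers, 1 was at or above the median in the circZbtb20 wild type and 4 to 6 on the other arrays. Ctsm, another placental cathepsin, lay between 4.47 and 4.87. Ctse, an aspartic protease, was at 4.22 and 4.13 in the circZbtb20 pair and at 5.48 and 5.56 in the Nr4a1 pair, so it differed between the pairs and not within them. In the RefSeq gene table Ctsk and Ctss are neighbours, as are Ctsj, Ctsq and Ctsr, which follow each other.

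LAMP1 and LAMP2, the most abundant proteins of the lysosomal membrane, differed in opposite directions in the circZbtb20 knockout. Lamp1 stood at 12.34, 9.55, 12.19 and 11.30. It was lowest in the circZbtb20 knockout, by -2.79 against its own wild type and -2.64 against the other. Lamp2 was at 12.32, 14.23, 11.65 and 11.72, highest in the circZbtb20 knockout, by 1.91 and 2.58. In the Nr4a1 knockout Lamp1 differed by -0.89 and Lamp2 by 0.07, and neither was called. Lamp3, a marker of mature dendritic cells, and Lamp5, of plasmacytoid dendritic cells and neurons, were below the median on 4 arrays.

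Of the 13 genes with a V1 symbol 5 were called higher and 0 lower in the circZbtb20 knockout (median 0.53), and of 8 V0 genes 1 was called higher and 4 lower (median -0.71). The 13 include Atp6v1fnb, which is named for its place beside Atp6v1f and is not a subunit, and the median without it was 0.635. Over all genes 15.6% were called higher and 11.1% lower, and 27.9% and 19.4% of those with a mean at or above the median of means. Against both wild types 3 V1 genes were called higher, and 1 V0 gene higher and 3 lower. After median centring Atp6v0d1 and Atp6v0e, at -0.97 and -0.95, were under the 2-fold size. No row carried the symbol Atp6v1a or Atp6v0c, so neither sector is covered in full. The difference between the sectors was not tested. Atp6v1f, for a subunit of the central stalk, stood at 10.69, 14.93, 9.60 and 9.21. Atp6v1g1, for a subunit of the peripheral stalk, was at 6.43, 10.30, 6.43 and 6.51, and its stalk partner Atp6v1e1 at 7.43, 10.84, 7.50 and 8.20. For these 3 genes the circZbtb20 knockout lay above the other arrays, with differences of 4.24, 3.87 and 3.41 from its own wild type. Atp6v1fnb was below the median on 4 arrays, at 3.29 to 3.60. Atp6v1b2, for the B subunit of the ATP-splitting ring, and Atp6v1g2, an isoform known from neurons, differed by 1.27 and 1.00. Against the other wild type these values were 0.97 and 0.62, under the 2-fold size.

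In the V0 sector of the circZbtb20 knockout, Atp6v0b, for a subunit of the proton-carrying ring, was at 6.55, 8.69, 6.67 and 6.55. It was the V0 gene called higher, by 2.14. The a subunits anchor the pump in particular membranes, and among their genes Atp6v0a1 and Atp6v0a2 were called lower in the circZbtb20 knockout. Atp6v0a1 was at 3.97 against 6.05, a difference of -2.08, and Atp6v0a2 at 3.97 against 5.39, a difference of -1.42. Both knockout values lay under that array's median of 4.38. Atp6v0d1, which couples the ring to the stalk, differed by -1.07, at 6.97 against 8.04. Atp6v0e, for a small subunit of the membrane sector, differed by -1.05, at 8.25 against 9.30.

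The Nr4a1 comparison called 3 V1 genes higher and 1 lower, and 2 V0 genes higher and 2 lower, beside 18.3% higher and 11.9% lower over all genes. For all genes with a mean at or above the median of means these shares were 33.1% and 20.6%. Atp6v0a2 was at 5.39, 3.97, 5.38 and 9.44, a difference of 4.06 within the pair. Atp6v1d, for the shaft of the central stalk, was at 5.31, 5.62, 5.43 and 9.15, a difference of 3.72. For both genes the Nr4a1 knockout was the array that stood apart. Atp6v0e differed by 2.67, at 11.29 against 8.62, Atp6v1b2 by 1.85 and Atp6v1c1, for the subunit that joins the sectors, by 1.79. Atp6v1g2 was lower, at 4.74 against 6.72, a difference of -1.98. Atp6v0a1 was called lower at the threshold itself, at 4.25 against 5.25, a knockout value under its array's median of 4.34. Atp6v0d2, an isoform of osteoclasts and macrophages, was called lower at -1.76, but the gene was high in the Nr4a1 wild type only, at 5.34, with 3.26 to 3.58 on the other arrays. Against the circZbtb20 wild type its difference was 0.32. The Nr4a1 wild type is also the array with the higher macrophage and gut epithelial markers described above, and the part of such cells in this value was not tested. Atp6v1h differed by -0.64 in the circZbtb20 knockout and by -0.32 in the Nr4a1 knockout, and Atp6v1e2 and Atp6v0e2 by 0.42 or less in size in either. Atp6v1b1, Atp6v1c2, Atp6v1g3 and Atp6v0a4, isoforms known from epithelia such as the kidney, were below the median on 4 arrays.

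**Figure D3:**
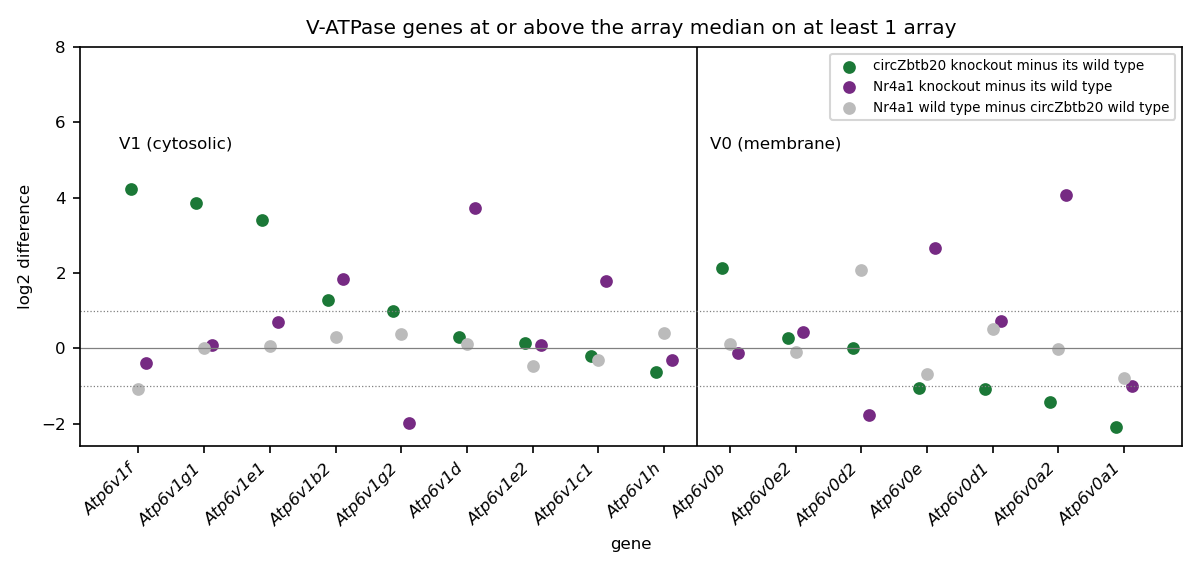
Log2 differences (vertical axis) of the V-ATPase genes that reached the array median on at least 1 array, ordered within the V1 and V0 sectors by the circZbtb20 difference, in green for the circZbtb20 comparison, purple for the Nr4a1 comparison and grey for the wild types. Atp6v1f, Atp6v1g1 and Atp6v1e1 are at 3.41 to 4.24 in the circZbtb20 comparison, while Atp6v0a2 and Atp6v1d are at 4.06 and 3.72 in the Nr4a1 comparison.

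The 5 ATG8 genes were each called in the circZbtb20 knockout, 3 higher and 2 lower. The same rule called 26.6% of all genes, and 47.4% of those with a mean at or above the median of means. Map1lc3b, for LC3B, the protein by which autophagosomes are usually followed, stood at 9.25, 13.73, 9.02 and 9.21. Gabarapl2, for GATE-16, was at 7.13, 11.71, 6.95 and 6.99. In both genes 3 arrays lay within 0.23 of each other, and the circZbtb20 knockout lay above them, by 4.48 and 4.58 against its own wild type. Gabarapl1 was at 9.10, 12.72, 9.63 and 5.98, so that the knockouts lay on either side of the wild types, at 3.62 and -3.65. Gabarap, the founding member of its branch, was lower in the circZbtb20 knockout, at 12.95 against 14.60, a difference of -1.65. In the Nr4a1 pair it was at 13.88 against 14.85, a difference of -0.97. Map1lc3a, for LC3A, was at 5.35 against 7.02 and at 4.81 against 6.32, differences of -1.67 and -1.51. Against the other wild type the first of these was -0.97, under the 2-fold size.

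The ATG group holds the system that conjugates ATG8 proteins to membrane. Of its 20 genes 9 were called higher and 2 lower in the circZbtb20 knockout (median 0.765), which is 45% and 10% beside 15.6% and 11.1% of all genes, and these 11 calls held against both wild types. Among all genes with a mean at or above the median of means, 27.9% were called higher and 19.4% lower. Atg7, the E1-like enzyme that activates both ATG8 and ATG12, was at 3.73, 7.25, 4.04 and 4.72. It differed by 3.52, with both wild type values under their array medians. Atg12, the ubiquitin-like protein joined to ATG5, was at 8.49, 11.53, 8.81 and 9.57, a difference of 3.04. Atg10, the E2-like enzyme for ATG12, differed by 2.65, at 7.81 against 5.16, and Atg5, its acceptor, by 1.42, at 8.15 against 6.73. Atg4b, the main protease that trims ATG8 proteins, was at 9.92 against 7.71, a difference of 2.21, and its relative Atg4a differed by 1.00. The Atg4a call lay at the threshold itself, and after quantile normalization the gene was at 0.94, under the 2-fold size. Atg3, the E2-like enzyme for ATG8, differed by 0.17 and Atg16l1, which places the conjugate on membrane, by -0.25. The E1-like enzyme and the ATG12 branch were thus called, and the E2-like enzyme of ATG8 and the scaffold were not.

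In the initiation group of the circZbtb20 knockout, Atg101 was at 8.10 against 5.02, a difference of 3.08, and its partner in the ULK complex, Atg13, was at 6.77 against 4.61, a difference of 2.16. Ulk1, the kinase of that complex, differed by -0.42. Atg2b, for a lipid transfer protein that feeds the growing membrane, differed by 1.31. The lower calls were Atg9a and Atg16l2. Atg9a, the scramblase that seeds the membrane, was at 9.43, 5.54, 8.81 and 8.42. It stood apart on the second array, at -3.89. Atg16l2, a relative of Atg16l1, was at 8.78 against 13.21, a difference of -4.43. The Nr4a1 wild type was at 11.41, so the difference against it was -2.63, and Atg16l2 was among the 4 members that were called between the wild types.

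Of the 20 ATG genes 3 were called higher and 4 lower in the Nr4a1 knockout (median 0.14), a share of 35% beside the 30.3% of all genes. The share was 53.7% for all genes with a mean at or above the median of means. Among the 69 genes the most negative differences of the Nr4a1 knockout were those of Sqstm1, Gabarapl1 and Ulk1. Sqstm1, for the cargo receptor p62, was at 15.39, 15.29, 15.34 and 9.41. The first 3 arrays lay within 0.10 of each other, and the difference was -5.93. Ulk1 was at 8.73, 8.31, 8.98 and 5.38, with a difference of -3.60 and 3 arrays within 0.67. Atg16l2 differed by -1.85, Atg13 by -1.37 and Atg2a by -1.07. Atg3, Atg5 and Atg16l1 were called higher, at 1.45, 1.18 and 1.26, but against the other wild type they were at 0.82, 0.70 and 0.88. Atg12, Atg7 and Atg4b, called in the circZbtb20 knockout, differed by 0.76, 0.68 and 0.27 here. These values come from the array on which T cell markers were higher and most ILC3 markers lower, and their part in the result was not tested. Atg14 and Atg4d differed by under 1 in both comparisons, and Atg4c and Atg9b were below the median on 4 arrays.

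**Figure D4:**
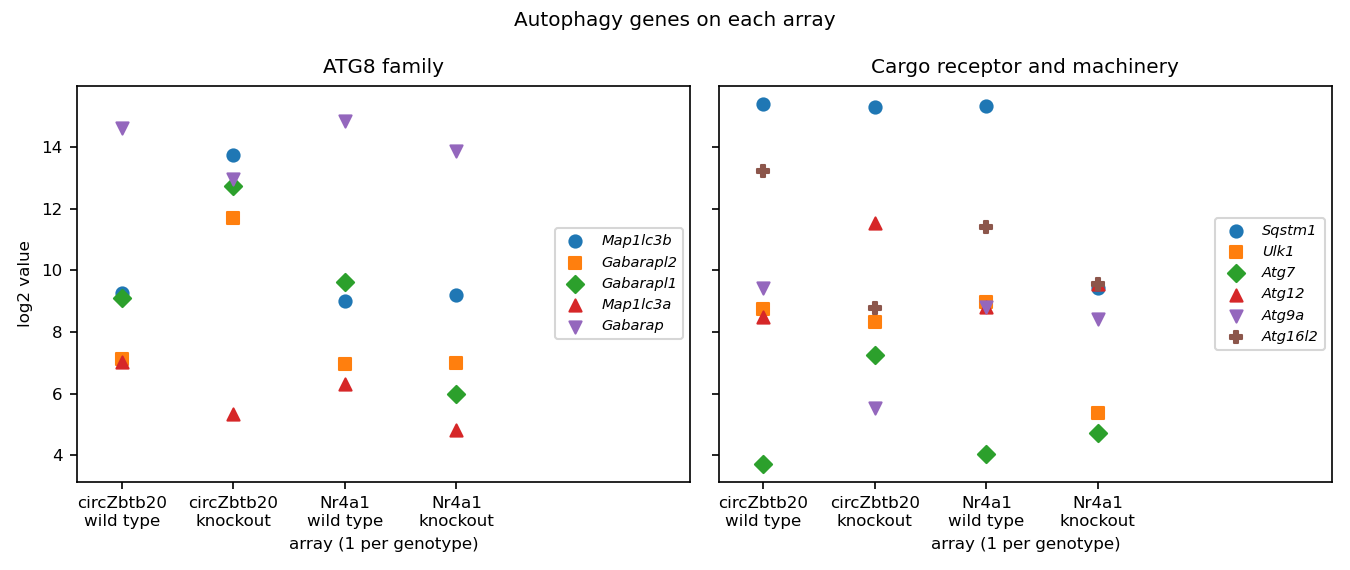
Deposited log2 values (vertical axis) of the 5 ATG8 genes and of Sqstm1, Ulk1, Atg7, Atg12, Atg9a and Atg16l2 on the 4 arrays (horizontal axis), 1 point per array. Map1lc3b, Gabarapl2 and Gabarapl1 are at 11.71 to 13.73 in the circZbtb20 knockout, above the other arrays, while Sqstm1 and Ulk1 are at 9.41 and 5.38 in the Nr4a1 knockout, under the other arrays.

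Of 44 further lysosomal genes 14 were called higher and 10 lower in the circZbtb20 knockout (median 0.125), and 54.5% were called in either direction, beside 26.6% of all genes. The Nr4a1 comparison called 10 higher and 9 lower (median 0.265), or 43.2% beside 30.3%. Over genes with a mean at or above the median of means, the shares of all genes called were 47.4% and 53.7%. Laptm4b, a membrane protein of late endosomes, was at 14.64 in the circZbtb20 knockout against 8.07, a difference of 6.57. Grn, for progranulin, differed by 3.98 and Igf2r, a receptor that sorts hydrolases to the lysosome, by 3.69. Gm2a, the activator of ganglioside breakdown, was lower in both knockouts, at 9.70 against 13.32 and at 9.54 against 13.41. Within the Nr4a1 pair, Lipa, the acid lipase that frees cholesterol from its esters, was at 11.45 against 5.28, a difference of 6.17. Npc1, which exports that cholesterol, differed by 4.08, at 7.74 against 3.66. Lgmn, an endopeptidase that processes cathepsins, was at 8.67, 9.54, 10.97 and 6.30, so that its difference of -4.67 was -2.37 when taken from the circZbtb20 wild type.

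Of 37 further autophagy genes 16 were called higher and 4 lower in the circZbtb20 knockout (median 0.24), or 54.1% beside the 26.6% of all genes. The Nr4a1 comparison called 12 higher and 5 lower (median 0.50), or 45.9% beside 30.3%. Most of the list was at or above the array medians. Of all genes with a mean at or above the median of means, 47.4% and 53.7% were called in the 2 comparisons. Vamp8, a SNARE of autophagosome fusion, was at 11.13 in the circZbtb20 knockout against 7.21, a difference of 3.92. Nbr1, a cargo receptor related to p62, differed by -2.77, and Ambra1, a partner of Beclin 1, by 2.47, a value of 1.32 when taken from the Nr4a1 wild type. For the Nr4a1 pair, Phb2, a receptor for damaged mitochondria, differed by 3.32 and Ncoa4, the receptor for ferritin, by 2.23. Snap29, another SNARE of fusion, differed by 2.10 and Tecpr1 by -2.12.

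The kinase complex mTORC1, which sits on lysosomes and restrains ULK1 and TFEB, was covered by 38 genes of its control. Of these 10 were called higher and 5 lower in the circZbtb20 knockout (median -0.04), or 39.5% beside the 26.6% of all genes. The Nr4a1 comparison called 12 higher and 5 lower (median 0.455), or 44.7% beside 30.3%. For all genes with a mean at or above the median of means the shares were 47.4% for circZbtb20 and 53.7% for Nr4a1. Slc38a9, the arginine sensor of the lysosomal membrane, lay at 9.61, 6.89, 9.60 and 12.84. Its differences of -2.72 and 3.24 had opposite signs, around wild types that were nearly equal. Rptor, for the subunit that binds substrates, differed by 3.35 in the circZbtb20 knockout, Prkab2, of the energy sensor AMPK, by 3.50 and Lamtor5, of the complex that anchors mTORC1, by 2.75. On the Nr4a1 side, Ddit4, an inhibitor of mTORC1, differed by 3.16 and Depdc5, of a complex that acts on its GTPases, by 2.94. Castor1, another arginine sensor, differed by -3.15, or -1.60 from the circZbtb20 wild type.

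Among 11 genes for protease inhibitors that act on cathepsins or related enzymes, 3 were called higher and 1 lower in the circZbtb20 knockout, and 0 higher and 3 lower in the Nr4a1 knockout. These are 36.4% and 27.3% of the list, beside 26.6% and 30.3% of all genes. Cst3, for secreted cystatin C, was at 14.39 against 11.94 in the circZbtb20 pair, a difference of 2.45, and Cstb, for a cytosolic cystatin, differed by 1.84. Serpinb9 in the Nr4a1 knockout was at 6.39 against 17.36, a difference of -10.97, and Serpinb1a at 5.66 against 15.73, a difference of -10.07. Both were at 15.73 or above on the other arrays. Serpinb9 is best known as an inhibitor of granzyme B and Serpinb1a of neutrophil serine proteases, so neither is mainly an inhibitor of lysosomal cysteine cathepsins.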

How the data were processed

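The deposited table holds log2 values for 22205 rows on 4 arrays. Per the submitters' processing notes it was made with Affymetrix Power Tools and RMA, which subtracts background, equalises array distributions by quantiles and combines a transcript's probes. The deposited row values are not fully equal between arrays, with medians of 4.34 to 4.51 and 75th percentiles of 6.58 to 6.94. The sources used here do not give the build, tool versions or settings. Values at the ceiling of 19.93 are bounds. Quantile normalization hides a change of total RNA per cell.

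Rows were named through a platform annotation: 19571 rows had 1 gene symbol, 0 several and 2634 none. The design text names the protocol of another Affymetrix mouse array than the platform this annotation belongs to, and the gene named for a row rests on that annotation. Each of the 69 members had 1 row and the same symbol in RefSeq. For genes with several rows the highest mean was used. Samples were grouped by title, and knockouts were compared with the wild type named for the same gene. No test was made between single arrays. Of the 69 members 53 passed the filter on low values in the circZbtb20 comparison and 55 in the Nr4a1 comparison.

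The members and lists were chosen with earlier results of these data known. Any member could be named, with the values of all arrays for up to 10 per family called against both wild types, and up to 4 genes per further list. Other scalings, sizes, filters and reference arrays were tried. Calculations used Python 3.11.15 and pandas 2.3.3. The rule for calls was run on simulated data with small noise and with changes above the 2-fold size in brighter genes. That run checks the code and cannot give the rate of false calls on these arrays.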

Additional observations from a re-analysis of the deposited data

How the results depend on the processing

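No paired analysis was possible because each genotype has 1 array and the labels give no replicate numbers. With a size of 4-fold, 2 on the log2 scale, 18 members were called in the circZbtb20 knockout, 9 in the Nr4a1 knockout and 1 between the wild types. With a filter at the 75th percentile of each array 2 were called between the wild types, and 27 and 18 in the knockouts. Of the called members 1 changed sign under the alternatives run, Atp6v0d2 at 0.32 in the Nr4a1 knockout against the other wild type. Quantile normalization gave 30 and 26 calls in the circZbtb20 and Nr4a1 comparisons, of which 29 and 22 were among the 32 and 24 given above with the same direction. Median centring gave 29 and 24 calls, of which 29 and 22 were among them, and moved the median of all genes in the Nr4a1 comparison from 0.00 to 0.17. Against the other wild type 27 of 32 and 20 of 24 calls were kept. Medians of families near 0, such as ATG genes and V0 in the Nr4a1 comparison, at 0.14 and 0.15, were at -0.05 and -0.014 after quantile normalization, so no direction is read from them. No member had several rows or a value at the ceiling, so the alternatives for these changed no member. The number of arrays limits the precision, and values near the array medians depend on background.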

Other observations

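Of the 36 further lysosomal genes with a promoter window, 5 held the core TCACGTGA, which is 13.9%, against 1.45% of measured genes with a window. They were Cln3, Gla, Gnptg, Igf2r and Mcoln1. In each knockout 2 of them were called higher and 1 lower, and their median difference was -0.30 for circZbtb20 and 0.04 for Nr4a1. Among measured genes with a window, 27.1% were called for circZbtb20 and 30.8% for Nr4a1. Among all genes with a mean at or above the median of means, the shares were 47.4% and 53.7%. The 4 members with a core had medians of -1.05 and 1.55 in the same comparisons, and the difference between the sets was not tested.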
